A study of Arabidopsis thaliana with 6 samples.

Results

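The ascorbate peroxidase (APX) family of Arabidopsis thaliana was followed through a short heat treatment under light. Its members were taken by their locus identifiers, and all 8 were found: APX1 (AT1G07890) and APX2 (AT3G09640) of the cytosol, APX3 (AT4G35000) and APX5 (AT4G35970) of the peroxisomal type, SAPX (AT4G08390), TAPX (AT1G77490) and APX4 (AT4G09010) of the chloroplast, and APX6 (AT4G32320). They are 8 of the 20310 genes that have a probe set of their own on the array, and each is read by 1 probe set that names no other gene. RefSeq lists 8 transcripts for APX1 and 5 for SAPX, which a single probe set does not tell apart. In RefSeq (assembly TAIR10.1), APX3, APX4, APX5, APX6 and SAPX lie on chromosome 4, APX1 and TAPX on chromosome 1, and APX2 on chromosome 3.

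Ascorbate peroxidases reduce hydrogen peroxide to water and take the electrons from ascorbate (vitamin C). The oxidised ascorbate is returned by monodehydroascorbate and dehydroascorbate reductases, the second with glutathione, which glutathione reductase restores. In leaves this cycle removes hydrogen peroxide made at the photosystems and in the cytosol. Transit peptides and membrane anchors place some members in organelles, so related proteins act on different pools of peroxide.

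Whole seedlings of ecotype Col-0, grown on solid medium in a long-day light cycle, were measured on 6 Affymetrix expression arrays with 1 sample each. In the heat group, 3 samples received 37 °C for 30 min in the light, and the control group held 3 samples left in the light without heat, the plants having been grown at 23 °C. No mutation or transgene is named for either group, and the labels do not say whether samples of a group were grown separately, so p-values measure the spread between these samples, which may be technical. Per the labels, no sample shares its age with another (10 to 15 days), with every heat sample older than every control sample, whereas the series text gives 10 days for all seedlings. The labelled age was therefore used only as an alternative covariate, and dark-treated groups named in that text were not analysed here.

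Levels are log2 values. Changes are heat minus control with the standard error of limma, a linear model fitted over all 22746 probe sets, and a gene was called at an adjusted p under 0.05 over all of them. Array medians lay between 4.40 and 4.54 and lower quartiles between 3.52 and 3.60. Precision is limited by having 3 arrays in each group. The heat label was borne out by HSP101, the disaggregase of the heat shock response, at 13.69, 13.83 and 13.71 on the heat arrays and 4.82, 4.87 and 8.22 on the control arrays. Control replicate 3 stood apart in HSP101. Over all probe sets, control arrays differed more among themselves than heat arrays. The SD of the difference between 2 arrays was 0.363 to 0.55 in controls and 0.187 to 0.277 after heat. Of the root markers listed, 2 of 3 had a probe set of their own and both fell: PYK10 changed by -1.45 ± 0.13 (limma adjusted p = 0.000589) and TIP2;3 by -0.67 ± 0.09 (adjusted p = 0.00375). Summed, the root markers lay between 9.77 and 10.24 on the heat arrays and between 11.37 and 11.44 on the control arrays. The leaf marker GAPA, the 1 of 4 leaf markers with a probe set of its own, lay between 13.02 and 13.24 on the heat arrays and between 13.41 and 13.61 on the control arrays, and was not called (adjusted p = 0.0558). The summed seed markers were at 4.70 to 4.91 and 4.65 to 4.77, and the summed flower markers at 4.33 to 4.39 and 4.20 to 4.26, on heat and control arrays. No seed or flower marker was called. The flower markers AG and AP3 and the seed marker CRA1 averaged 3.15, 3.53 and 3.42 after heat, near or below the lower quartiles of the arrays. In whole seedlings, fewer cells of a type and less RNA per cell cannot be told apart, and the part of the marker shifts in the results on APX genes was not tested.

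APX2 was the 1 member that passed the test. On the deposited scale the lower limit of the 95% interval of its rise was 120.0-fold, against a control level not shown to be above background. Of the 8 members 1 rose and 0 fell, where 7.82% of all tested probe sets rose and 11.5% fell. The remaining 7 differed by -0.01 to 0.57 and were not called. The median change over the 8 members was 0.26, against 0.02 over all tested probe sets. All heat arrays lay above all control arrays for 5 members (APX1, APX2, APX3, APX6 and TAPX) and below them for 0. Over all probe sets the heat arrays lay above in 18.8% and below in 20.0%, and groups failed to overlap in either direction in 38.8%.

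**Figure D1:**
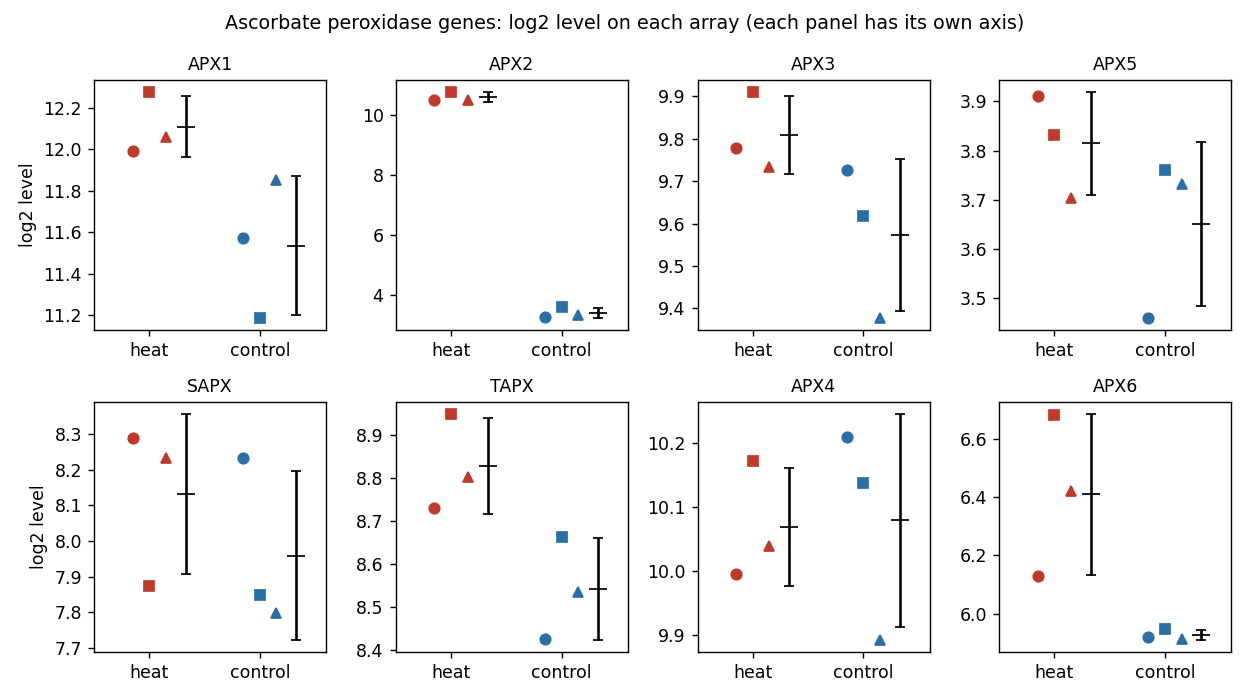
Log2 level of each ascorbate peroxidase gene on the 3 heat arrays (left, red) and 3 control arrays (right, blue), with circle, square and triangle for replicates 1, 2 and 3 and the mean ± SD in black; each panel has its own axis. APX2 averaged 10.60 after heat and 3.38 in control seedlings, while the groups of APX5, SAPX and APX4 overlap.

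APX2 encodes a cytosolic enzyme known for its induction by heat and by excess light. It was at 10.49, 10.78 and 10.51 on the heat arrays, against 3.25, 3.59 and 3.30 on the control arrays. The lowest heat array lay 6.91 above the highest control array, and the groups spread over 0.29 (heat) and 0.33 (control). The mean was 10.60 ± 0.16 after heat and 3.38 ± 0.18 in control seedlings (SD, n = 3 each), a change of 7.22 ± 0.13 (± SE; limma adjusted p = 5.56e-07). The lower limit of the 95% interval was 6.91. Only 28 of the 22746 tested probe sets had a larger rise. The control levels lay below the lower quartile of their array in replicates 1 and 3 and above it in replicate 2. The share of background in them was not measured, so the size of the rise on this scale may be understated. The call held in all 16 alternative settings, with changes between 6.71 and 7.32 and adjusted p up to 0.000838. The mean over probe sets is among them and could not alter a gene read by a single probe set. The lowest, 6.71, came from scaling to the Bacillus control probe sets and lies below the 6.91 limit of the deposited scale.

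The plant heat shock factors of classes A1 and A2 are known to act on APX2. Of 9 listed factors known to act on APX genes, 4 rose and 0 fell, where 7.82% of all probe sets rose and 11.5% fell, with a median change of 0.79. After scaling to the Bacillus control probe sets, 4 of the 9 were called higher and 3 lower. Over all 22746 probe sets that scaling gave 643 called higher and 9667 lower. With control replicate 1 left out, 3 factors were called higher and 2 lower, beside 1774 and 2462 of all probe sets. HSFA2, which keeps heat shock genes on, rose by 7.95 ± 0.93 (limma adjusted p = 0.00188), and HSFA3, a later factor of the same cascade, by 2.17 ± 0.37 (adjusted p = 0.00852). HSFA1D and HSFA1E, which start the response, rose by 1.24 ± 0.13 (adjusted p = 0.00129) and 0.79 ± 0.18 (adjusted p = 0.0232). Of the same class, HSFA1A (-0.02, adjusted p = 0.961) and HSFA1B (-0.11, adjusted p = 0.599) were not called. Nor were HSFA4A (-0.76, adjusted p = 0.404), ZAT10 (-1.09, adjusted p = 0.45) and ZAT12 (1.59, adjusted p = 0.166). Their control arrays spread over 2.38, 3.51 and 2.96. In each, control replicate 1 lay lowest, at 5.82, 7.88 and 5.94. Leaving out heat replicate 1, control replicate 1 or control replicate 2 ended the call on HSFA1E (adjusted p up to 0.0785). Scaling to the Bacillus control probe sets did so as well, with a change of 0.29 (adjusted p = 0.27). With the labelled age as a covariate none of the 4 factors that rose was called, HSFA2 at 5.25 (adjusted p = 0.202) and HSFA3 at 0.70 (adjusted p = 0.537). APX2 was at 7.17 there (adjusted p = 0.000524). By the labels every heat sample is older than every control sample, so that fit separates heat from age poorly. Its standard errors were larger (HSFA1D 0.296 against 0.133, HSFA2 1.659 against 0.933, HSFA3 0.447 against 0.369), so a lost call is not read as no change. The estimates moved as well. HSFA3 was at 0.70 against 2.17, HSFA2 at 5.25 against 7.95 and HSFA1D at 1.12 against 1.24. HSFA1E was higher, at 0.97 against 0.79.

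Control replicate 3 set APX2 apart from HSFA2 and HSP101. HSFA2 was at 12.83, 12.91 and 12.83 on the heat arrays and at 3.69, 3.72 and 7.30 on the control arrays. In control replicate 3, HSFA2 was 3.60 and HSP101 3.37 above the mean of the other control arrays, and APX2 differed from that mean by -0.12. Genes close to APX2 over the 6 arrays were sought by the root mean square difference of their levels, each taken from the gene's own mean. The nearest were EGY3 (AT1G17870), with a difference of 0.19, the heat shock factor gene HSFA7B (AT3G63350), with 0.20, AT5G47610, with 0.30, AT1G03070, with 0.33, and ERDJ3A (AT3G08970), a co-chaperone of the endoplasmic reticulum, with 0.36. EGY3 was at 11.68, 11.99 and 11.73 on the heat arrays and 4.76, 4.61 and 4.87 on the control arrays. Changes of these 5 genes ran from 6.74 to 7.69, and each was called. With groups this far apart, the measure is set mainly by the size of the change.

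**Figure D2:**
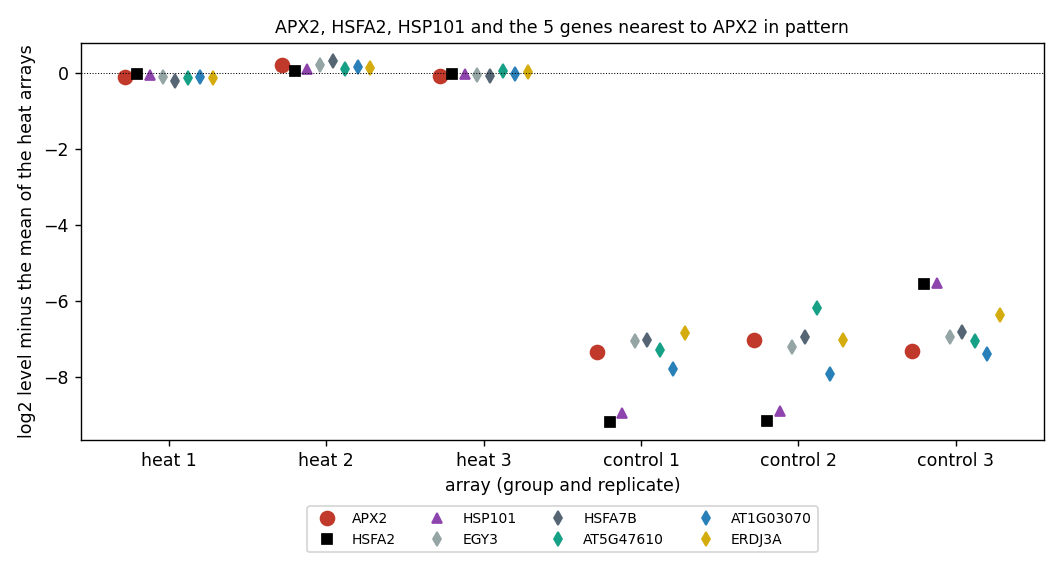
Log2 level of each gene minus that gene's mean over the heat arrays, by array, for APX2 (large red circles), HSFA2, HSP101 and the 5 genes nearest to APX2 in pattern. In control replicate 3 HSFA2 is at -5.56 and HSP101 at -5.53, against -9.17 and -8.93 in control replicate 1, while APX2 is at -7.29 and -7.34.

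APX1 encodes the constitutive cytosolic enzyme, which protects the chloroplast as well in knockout studies. It was at 11.99, 12.28 and 12.06 on the heat arrays, against 11.57, 11.19 and 11.85 on the control arrays. The groups did not overlap, with a gap of 0.14 between the lowest heat and the highest control array, and the control arrays spread over 0.67. The mean was 12.11 ± 0.15 after heat and 11.54 ± 0.33 in control seedlings (SD, n = 3 each), and the difference of 0.57 ± 0.18 did not pass (limma adjusted p = 0.0698, 95% interval 0.149 to 0.997). APX1 was called without control replicate 3 (0.73, adjusted p = 0.0203), with each array centred on its median (0.68, adjusted p = 0.0361), with array weights (0.62, adjusted p = 0.0369) and with a trend in the prior variance (adjusted p = 0.0427). Scaled to the Bacillus controls it was at 0.07 (adjusted p = 0.787). The genes nearest to APX1 in pattern were AT1G17360, AT1G06210, the NADP-linked isocitrate dehydrogenase gene ICDH (AT1G54340), the UDP-glucose epimerase gene RHD1 (AT1G64440) and AT4G25680, with root mean square differences of 0.07 to 0.11. Of these, RHD1 was called (0.51 ± 0.13, adjusted p = 0.0416).

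The cytosolic genes changed by unequal amounts. Within an array, the log2 level of APX2 minus that of APX1 was -1.50, -1.49 and -1.55 on the heat arrays and -8.32, -7.60 and -8.55 on the control arrays. The shift of 6.64 between groups had a p of 0.1 in a 2-sided exact permutation test (0.3 adjusted over 3 pairs), the smallest that 3 against 3 arrays can give. These differences hold the response of each probe set as well as the RNA, so only their shift between groups is read.

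APX3 encodes a peroxisomal membrane-bound enzyme. It was at 9.78, 9.91 and 9.73 on the heat arrays, against 9.73, 9.62 and 9.38 on the control arrays, and the groups were separated by 0.0077. The change of 0.23 ± 0.11 did not pass (limma adjusted p = 0.211, 95% interval -0.04 to 0.50). APX5, its relative, was dim on every array, at 3.91, 3.83 and 3.70 after heat and 3.46, 3.76 and 3.73 in control seedlings. Its groups overlapped, and the change was 0.16 ± 0.11 (adjusted p = 0.365, 95% interval -0.10 to 0.43). At a level this near the lower quartile of the arrays, a change in a small amount of RNA may not have been detectable. The APX5 minus APX3 difference shifted by -0.07 between groups (exact permutation p = 0.8, 0.8 adjusted over 3 pairs), less than its SD of 0.32 over the control arrays. Its sign turned to 0.03 under quantile normalization.

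**Figure D3:**
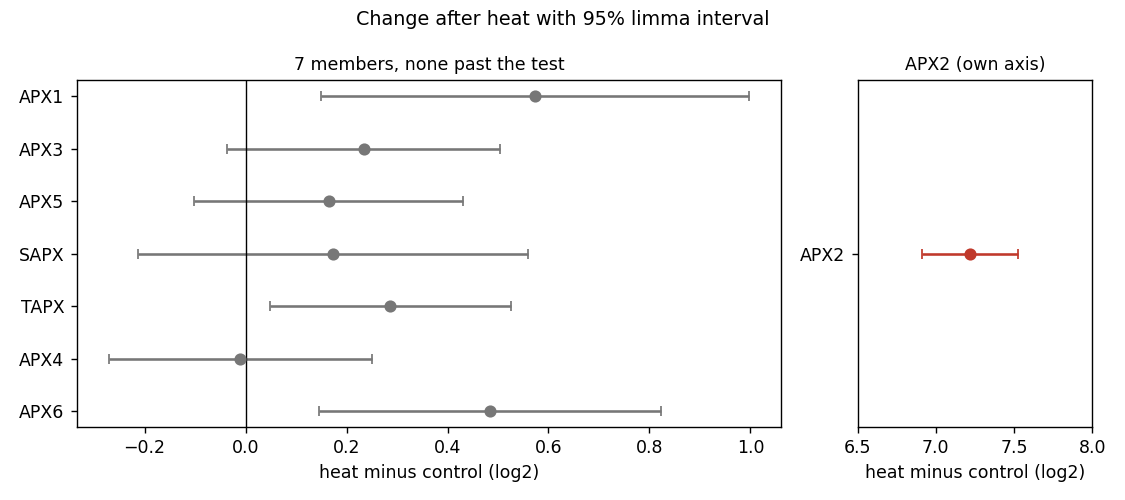
Heat minus control change of each member on the log2 scale, with its 95% limma interval, in grey for the 7 members not called and in red for APX2, which has its own axis. The intervals of APX1, TAPX and APX6 lie above 0 before adjustment over all probe sets, and the lower limit for APX2 is 6.91.

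None of the 3 chloroplast members was called. TAPX encodes the thylakoid-bound enzyme next to photosystem I. It was at 8.73, 8.95 and 8.80 on the heat arrays and 8.43, 8.66 and 8.54 on the control arrays, with no overlap and a gap of 0.07. Its change of 0.29 ± 0.10 did not pass (limma adjusted p = 0.0978, 95% interval 0.05 to 0.53), though it did with each array centred on its median (0.39, adjusted p = 0.036). SAPX, the soluble enzyme of the stroma that is also sent to mitochondria, was at 8.29, 7.87 and 8.23 on the heat arrays and 8.23, 7.85 and 7.80 on the control arrays. The groups spread over 0.415 (heat) and 0.434 (control) and overlapped, and the change was 0.17 ± 0.16 (adjusted p = 0.52, 95% interval -0.21 to 0.56). The TAPX minus SAPX difference shifted by 0.11 (exact permutation p = 0.7, 0.8 adjusted over 3 pairs), and the shift was -0.08 without heat replicate 2 or without control replicate 1. APX4, also named TL29, is a protein of the thylakoid lumen that resembles the family but is not known to act as a peroxidase. It was at 10.00, 10.17 and 10.04 on the heat arrays and 10.21, 10.14 and 9.89 on the control arrays, and the groups overlapped. Its change of -0.01 ± 0.11 had a 95% interval from -0.27 to 0.25 (adjusted p = 0.962), or 0.829 to 1.19 as a fold.

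APX6 differs from the other members in sequence and has been studied in seeds and ageing leaves. It was at 6.13, 6.68 and 6.42 on the heat arrays, against 5.92, 5.95 and 5.91 on the control arrays. The control arrays lay within 0.03 of each other and the heat arrays spread over 0.55, with the lowest of them 0.18 above the highest control array. The change of 0.49 ± 0.14 did not pass (limma adjusted p = 0.0584, 95% interval 0.15 to 0.82). APX6 was called without heat replicate 1 (0.63, adjusted p = 0.0247), under quantile normalization (0.60, adjusted p = 0.0324) and with each array centred on its median (0.59, adjusted p = 0.0258).

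Heat replicate 2 was the highest of the heat arrays in 6 of the 8 members and the lowest in SAPX. Over all probe sets it was the highest in 39.8%. Control replicate 3 was the lowest control array in 4 members, against 42.7% of all probe sets.

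The direction of the small changes rested on the scale. RMA brings the arrays to a similar distribution, so a change in total messenger RNA may not show. The deposited arrays were not fully alike, since each heat median lay below each control median. The 24 Bacillus control probe sets are designed to read RNAs added from outside the plant, and whether equal amounts were added to each sample was not measured. They averaged 6.65 to 7.14 on the heat arrays and 6.40 to 6.47 on the control arrays. Scaled to them, the median change of all probe sets was -0.48, APX2 was at 6.71, APX1 at 0.07, APX6 at -0.02, TAPX at -0.22, APX3 at -0.27, SAPX at -0.33, APX5 at -0.34 and APX4 at -0.51. With each array centred on its median, the median of all probe sets was 0.12 and APX4 was at 0.09. The values of the 7 members are therefore relative to the bulk of transcripts. With the labelled age as a covariate, none of the 7 was called (adjusted p of 0.307 or more), and the values were 0.53 for APX3, 0.54 for SAPX, 0.31 for APX1, 0.27 for APX6, 0.15 for TAPX, 0.12 for APX5 and 0.19 for APX4. Standard errors were larger in that fit (APX1 0.383 against 0.178).

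**Figure D4:**
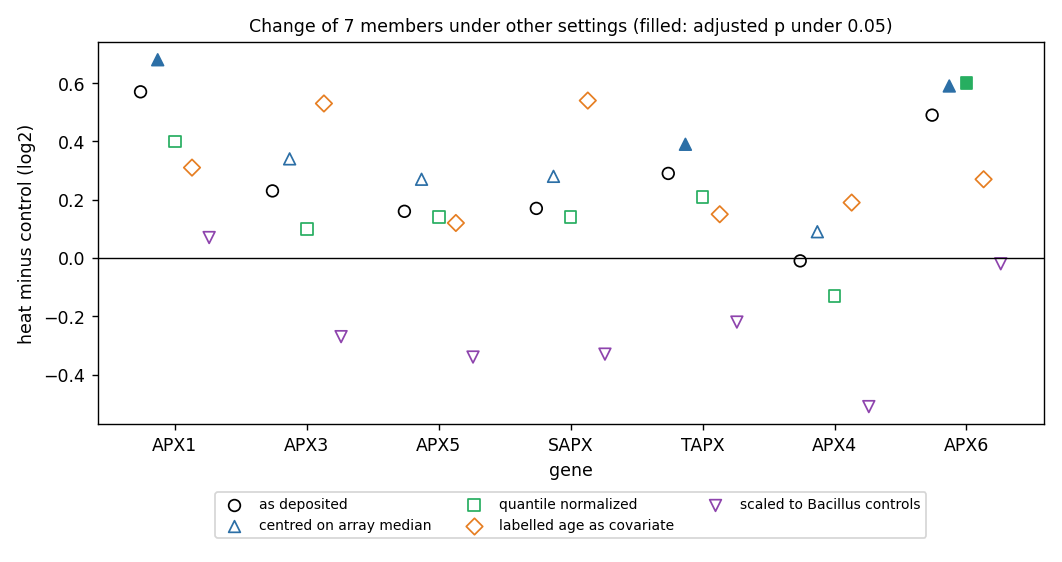
Heat minus control change (log2) of the 7 members other than APX2 under the deposited scale and 4 alternative settings, with filled markers for an adjusted p under 0.05. APX1 stays between 0.07 and 0.68 over these settings, and the other 6 members lie below 0 after scaling to the Bacillus controls.

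Genes that supply and recycle ascorbate, and other enzymes that remove hydrogen peroxide, were listed beside the family. Of 55 measured genes, the factors above included, 12 rose and 4 fell. Over all tested probe sets 7.82% rose and 11.5% fell, the shares to set beside each list's count on the deposited scale. Among 9 measured enzymes of ascorbate recycling 3 rose and 0 fell, with a median change of 0.17. These counts moved with the setting. Scaling to the Bacillus controls gave 1 called higher and 4 lower, beside 643 higher and 9667 lower of all 22746 probe sets. Leaving out control replicate 3 gave 1 higher and 2 lower, and quantile normalization 2 higher and 1 lower. DHAR2, a cytosolic dehydroascorbate reductase, was at 8.40, 8.21 and 8.52 on the heat arrays and 7.60, 6.99 and 7.09 on the control arrays, a rise of 1.15 ± 0.18 (limma adjusted p = 0.00563). GR1, the glutathione reductase of cytosol and peroxisome, rose by 0.51 ± 0.13 (adjusted p = 0.0385), with a change of 0 under Bacillus scaling, and it stayed past the threshold with heat replicate 2 left out but with none of the other arrays left out (up to 0.111). MDAR1, a peroxisomal and cytosolic monodehydroascorbate reductase, rose by 0.32 ± 0.09 (adjusted p = 0.0484). It stayed past the threshold with control replicate 1 left out but with none of the other arrays left out (up to 0.153), and was at -0.19 after that scaling. Quantile normalization also ended the call on MDAR1 (0.19, adjusted p = 0.208). So did leaving out dim probe sets, a prior trend, no moderation and the replicate block (adjusted p of 0.0604 to 0.087).

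Of 10 genes of ascorbate synthesis 0 rose and 2 fell, with a median of 0.08. VTC5, a GDP-galactose phosphorylase, was at 4.52, 4.47 and 4.46 on the heat arrays and 5.04, 5.15 and 5.76 on the control arrays, and fell by 0.83 ± 0.19 (limma adjusted p = 0.024; up to 0.0848 without any 1 heat array). GME, an epimerase of the same pathway, fell by 0.56 ± 0.13 (adjusted p = 0.0305; up to 0.105 with each of the other arrays left out, and called with control replicate 3 left out). The glutathione synthesis genes GSH1 (0.11, adjusted p = 0.557) and GSH2 (-0.04, adjusted p = 0.875) were not called. Scaled to the Bacillus controls, GSH1 was at -0.39 (adjusted p = 0.116) and GSH2 at -0.55, then called (adjusted p = 0.0377). The median change of all probe sets was -0.48 on that scale.

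**Figure D5:**
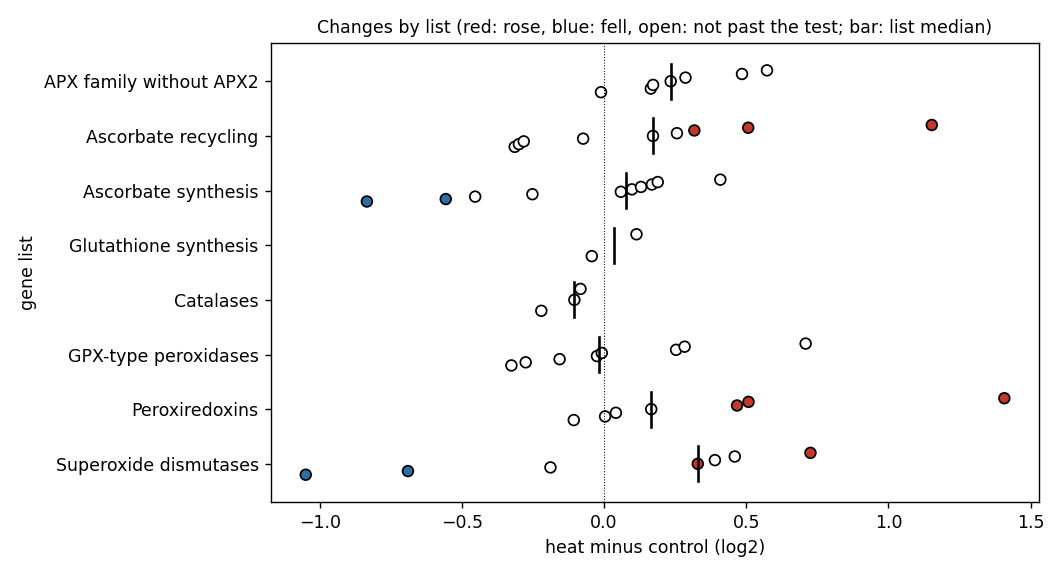
Heat minus control change (log2) of the 7 APX members other than APX2 and of each measured gene in 7 lists of ascorbate and peroxide metabolism, in red where the gene rose, in blue where it fell and open where it was not called; bars mark list medians. The 7 members lie between -0.01 and 0.57, with a median of 0.23.

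Other enzymes that remove hydrogen peroxide were read next. Catalases, which break it down without a donor, were not called: CAT1 differed by -0.08 (limma adjusted p = 0.652), CAT2 by -0.10 (adjusted p = 0.866) and CAT3 by -0.22 (adjusted p = 0.201). CAT2 was at 10.83, 10.63 and 10.92 on the heat arrays and at 10.85, 11.60 and 10.23 on the control arrays, a control spread wider than the difference, and was at 0.25 without control replicate 2. CAT3 was at -0.41 and called under quantile normalization (adjusted p = 0.0214). After scaling to the Bacillus controls these catalases were at -0.59, -0.61 and -0.72 and called (adjusted p up to 0.0435). Of 8 GPX-type peroxidases 0 rose and 0 fell, with changes from -0.33 to 0.71. Of these, 4 were called lower after Bacillus scaling, where 9667 of all 22746 probe sets were. Under quantile normalization 1 was called lower. With array weights, without heat replicate 2 and without control replicate 3, 1 was called higher. Of 7 measured peroxiredoxins, which use thiols in place of ascorbate, 3 rose and 0 fell, with a median of 0.17. PRXIIB, of the cytosol, was at 11.81, 11.94 and 11.80 on the heat arrays and 10.44, 10.38 and 10.51 on the control arrays, and rose by 1.41 ± 0.08 (adjusted p = 8.85e-05), a call that held in every alternative run. The plastid form 2CPB rose by 0.51 ± 0.08 (adjusted p = 0.00664), with a change of 0 after that scaling. The mitochondrial PRXIIF rose by 0.47 ± 0.12 (adjusted p = 0.0425), a call that held with control replicate 1 left out and with none of the others left out (up to 0.133), and was at -0.04 after that scaling.

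Superoxide dismutases produce the hydrogen peroxide that the family removes. Of 7 genes 2 rose and 2 fell, with a median of 0.33. CSD3 of the peroxisome rose by 0.73 ± 0.10 (limma adjusted p = 0.00363), with 0.22 under Bacillus scaling (adjusted p = 0.367), and MSD1 of the mitochondrion rose by 0.33 ± 0.08 (adjusted p = 0.0313), with -0.17 after that scaling. The call on MSD1 was lost in each fit that left out 1 array (up to 0.109). CSD1 of the cytosol fell by 0.69 ± 0.13 (adjusted p = 0.0118). The plastid form, CSD2, changed by -1.05 ± 0.29 (adjusted p = 0.0476), which did not pass with any array other than control replicate 3 left out (up to 0.131). In the less precise fit with the labelled age as a covariate, PRXIIB was the 1 gene of these lists that was called.

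The chromosomal neighbours of the family were read as well, a choice made after the members' values were seen. Of the 32 nearest measured loci, taken as a pair on each side of each member, 2 rose, 3 fell and 27 were not called, near the 7.82% and 11.5% of all probe sets that rose and fell. Beside APX2, AT3G09630 differed by 0.09 (limma adjusted p = 0.673). On its other side HCF152 (AT3G09650), needed for processing plastid messenger RNA, fell by 0.42 (adjusted p = 0.035).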

How the data were processed

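RNA from 6 whole-seedling samples was measured on 1 array each. The deposited log2 levels were made with RMA per the submitters' processing notes; no version of it, and no release of the array annotation, is given in the sources used here. All 136860 level cells of the authors' annotated table equal those of the value table. The linear ratio the authors deposited per replicate number is control over heat (log2 within 0.0001 of the difference of levels), and was used only to check direction. Levels were not normalized again.

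Of 22810 probe sets, 64 control probe sets were left out. Genes were named through the Entrez identifiers in the authors' annotation and RefSeq (20540 probe sets with a single matched locus), with the highest-mean probe set per gene. Heat was compared with control by limma 3.58.1 in R 4.3.3 (lmFit, eBayes, 2-sided). Residual degrees of freedom were 4 and prior ones 2.65, and p-values were adjusted by Benjamini-Hochberg over the 22746 probe sets. The script was tested on simulated data. Pairs were compared by exact permutation (scipy 1.17.1). Members and lists were chosen with earlier results of these data known. Named were all members, up to 4 called genes per list with the largest change, every gene of lists of 5 or fewer, HSP101 and HSFA2, and the 5 genes nearest in pattern to APX2 and to APX1. HSFA1A and HSFA1B were named beside the other factors of their class, and HSFA4A, ZAT10 and ZAT12 to complete the list of factors. Of the 58 listed genes, DHAR1, PRXIIC and PRXIID had no probe set of their own. Alternatives covered scaling, filtering, the variance model, weights per array, the replicate number as a block, labelled age as a covariate, the mean over probe sets, a fold minimum and leaving out each array.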

Additional observations from a re-analysis of the deposited data

How the results depend on the processing

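The rise of APX2 kept its call in all 16 alternatives, and no member was called lower in any. The number of members called higher was 1 on the deposited scale, 2 under quantile normalization (APX6 at 0.60), 4 with arrays centred on their median (APX1 0.68, APX6 0.59, TAPX 0.39), 2 with a prior trend (APX1 0.57), 2 with array weights (APX1 0.62) and 1 or 2 when arrays were left out in turn. Scaling to the Bacillus controls turned APX3 to -0.27, APX5 to -0.34, APX6 to -0.02, SAPX to -0.33 and TAPX to -0.22; there the quartiles of all standard errors were 0.220 and 0.227, against 0.091 and 0.149 without it, so most genes got nearly the same error there. APX4 changed sign to 0.09 with centring and 0.19 with the age covariate. With 1 array left out, APX1 ran from 0.40 to 0.73, APX2 from 7.12 to 7.32, APX3 from 0.14 to 0.31, APX4 from -0.10 to 0.05, APX5 from 0.07 to 0.22, APX6 from 0.35 to 0.63, SAPX from 0.09 to 0.31 and TAPX from 0.23 to 0.35. The APX2 minus APX1 shift then ran from 6.44 to 6.92, APX5 minus APX3 from -0.24 to 0.07 and TAPX minus SAPX from -0.08 to 0.24; quantile normalization put APX5 minus APX3 at 0.03.

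Over all probe sets, 1778 rose and 2614 fell. The alternatives gave 3054 higher with centring, 643 and 9667 after Bacillus scaling, 971 and 1178 without moderation, 359 and 227 with the age covariate, and 637 and 906 with a change of at least 2-fold. Leaving out arrays gave 1035 to 1774 higher and 1473 to 2807 lower. In the lists, 12 higher and 4 lower became 7 lower under quantile normalization, 6 and 23 after Bacillus scaling, 6 and 0 with no moderation, 1 and 0 with the age covariate, and 7 to 11 higher and 1 to 6 lower with 1 array left out. With the replicate block 2 were lower and APX1 had an adjusted p of 0.121; same-numbered arrays had correlations of deviations of 0.044, 0.192 and -0.077, so the numbers were not taken as pairs. Signs also changed for genes not called: GSH1 to -0.03 (quantile) and -0.39 (Bacillus), GSH2 to 0.06 (centring) and 0.04 (array weights), CAT1 to 0.02 (centring), and CAT2 to 0.29 (age). With 1 array left out, GSH2 ran from -0.13 to 0.10, CAT1 from -0.15 to 0.02 and CAT2 from -0.43 to 0.25. MDAR1 was at -0.19, PRXIIF at -0.04 and MSD1 at -0.17 after Bacillus scaling. The cause of these differences was not tested. The mean over probe sets changed no member's value, since each has 1 probe set. Precision is limited by 3 arrays per group.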
